A study of Mus musculus with 6 samples.

Results

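The eukaryotic initiation factors (eIF) and elongation factors (eEF) were described in tongue epithelium of mice with and without an inducible deletion of Ire1α, which senses misfolded proteins in the endoplasmic reticulum. Members were every gene of the deposited table whose symbol starts with Eif or Eef and a digit. The kinases that phosphorylate eIF2 (Eif2ak genes) and symbols containing -ps were left out. This gave 85 of 55421 genes, of which 64 were above 0 in at least 1 library and 54 had the level needed for a test, a normalised count of at least 10 in at least 3 libraries. None of the 54 tested factors passed the threshold for a difference between genotypes, against 198 of all 10987 genes tested (1.80%). The largest difference belonged to Eif4ebp1, the inhibitor of the cap-binding protein eIF4E, at 1.76-fold in the mutant mean, and it did not pass.

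The WT mice carried floxed Ern1, the gene of Ire1α, on both alleles and no Cre (genotype IRE1F/F). The KO mice were littermates with the same alleles and a Cre driven by the keratin 14 promoter and activated by tamoxifen (genotype K14CreERT2 IRE1 F/F). All 6 mice, 3 per genotype, received tamoxifen by intraperitoneal injection on each of 4 days and were harvested on day 5, so the controls had the drug and the floxed alleles but not the Cre. Tongue mucosa was peeled off after digestion with a neutral protease and collagenase, and 1 library per mouse was made with QuantSeq, a kit that reads 1 tag near the 3′ end of each mRNA. The labels give no age or sex. Keratin 14 is made by basal keratinocytes, so cells in the peeled sheet that neither make it nor descend from such cells would keep Ire1α.

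Translation starts when eIF2, loaded with GTP and the initiator tRNA, joins the small ribosomal subunit together with eIF1, eIF1A, eIF3 and eIF5. The cap of the mRNA is bound by eIF4E, which with the scaffold eIF4G and the helicase eIF4A recruits that subunit. eIF2B recharges eIF2 with GTP, and phosphorylation of eIF2 by stress kinases, among them the endoplasmic reticulum sensor PERK, turns eIF2 into an inhibitor of eIF2B. During elongation eEF1A delivers aminoacyl-tRNA, the eEF1B complex recharges eEF1A, and eEF2 moves the ribosome along.

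Libraries held 4606309 to 6286153 reads. Ern1 was at 102, 105 and 77.1 normalised counts in WT replicates 1 to 3 and at 78.0, 117 and 123 in KO replicates 1 to 3; its tag near the 3′ end need not lie in the deleted part, so it is no check of the labels. All 10 keratinocyte markers were tested and 0 were called, with summed counts of 492520 to 867250 per library. Most of each sum was Krt13, Krt4 and Krt6a, and other markers lay in opposite directions. Krt14 was at 13180 to 15240 in WT and 23880 to 40920 in KO, and Krt5 at 3726 to 6465 and 7304 to 14130. Krt15 was at 4815 to 6177 in WT and 1183 to 3803 in KO, and Trp63 at 599 to 792 and 394 to 531. KO replicate 1 stood apart in markers of other cells: the summed count of 20 skeletal muscle markers, with Acta1 and Tnnc2 listed at 0 in every library, was 3924 in that library against 166 to 776 in the other 5. Its 8 fibroblast markers lay on average 2.52 above the WT mean on the log2 scale, against -0.61 to 0.18 in the other 5 libraries. Their summed count there, 1414, was under the 1444 to 1966 of WT but above the 313 and 685 of KO replicates 2 and 3. Most of the WT sums was 1 marker, Dcn, at 1658, 1329 and 1856 in WT and 530, 195 and 544 in KO.

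Values are normalised counts per library, in the order replicates 1 to 3, with mean ± SD (n = 3 mice per genotype). Differences are KO minus WT on the log2(normalised count + 1) scale with the standard error (SE) of the limma fit. Adjusted p-values are Benjamini-Hochberg values of that fit over all genes tested. In bulk tissue, fewer cells of a type and less RNA per cell cannot be told apart.

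The tested factors lay close to equality between the genotypes. Among the 54 tested factors, 34 had a difference above 0 and 20 below, with a median of 0.09 against -0.01 for all genes. With the libraries scaled to equal totals, 28 lay above 0 and 26 below. The median was 0.044 by edgeR and 0.047 by DESeq2, each with 31 above 0, and 0.033 without KO replicate 1. In 52 factors (96.3%) the difference was under 0.5 in size, against 77.9% of all genes, and none exceeded 1, against 566 of 10987 genes. The factors were mostly at higher counts, where differences spread less. Among genes with a mean of at least 100, 95.5% of 44 factors and 86.0% of 4850 genes were under 0.5 in size. Of those 4850 genes, 116 exceeded 1. Of the 53 factors other than the Y-linked Eif2s3y, differences ran from -0.44 for Eef2k to 0.80 for Eif4ebp1, with SEs of 0.16 to 0.45. For 46 of these 53 the 95% interval of the difference lay within -1 and 1, so a change of more than 2-fold on this scale was outside their intervals. Neither edgeR nor DESeq2 on recovered reads called a member at an adjusted p of 0.05. By limma 4 of 54 members were under an unadjusted p of 0.05 (7.41%), against 13.5% of all genes, and 5 were by edgeR and 4 by DESeq2. The WT and KO values did not overlap in 7 of 54 members (13.0%), against 19.1% of all genes, so these shares were not above the background. The authors' deposited table of 341 called genes held 0 of the 85 members.

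**Figure D1:**
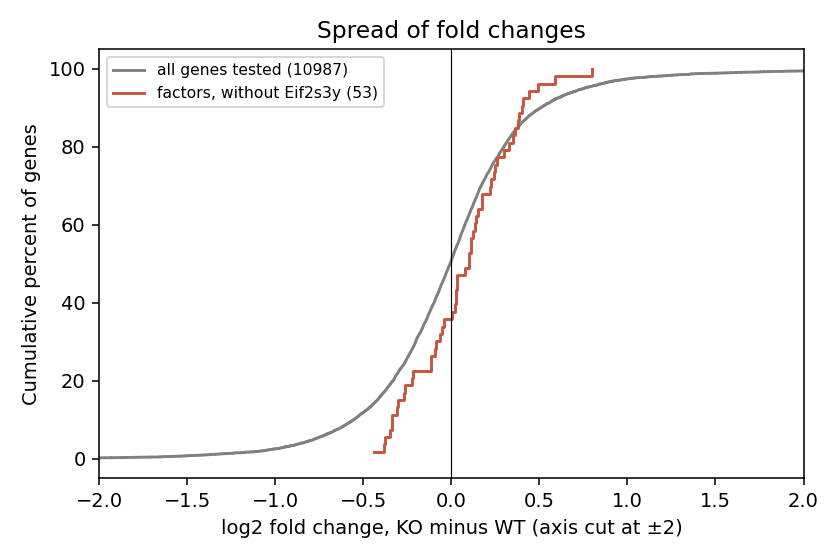
Cumulative percent of genes against the log2 difference, KO minus WT, for the 53 tested factors without Eif2s3y (red) and all 10987 genes tested (grey); the axis stops at 2 in size. The red curve spans -0.44 to 0.80, while the grey curve runs past 1 in both directions.

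**Figure D2:**
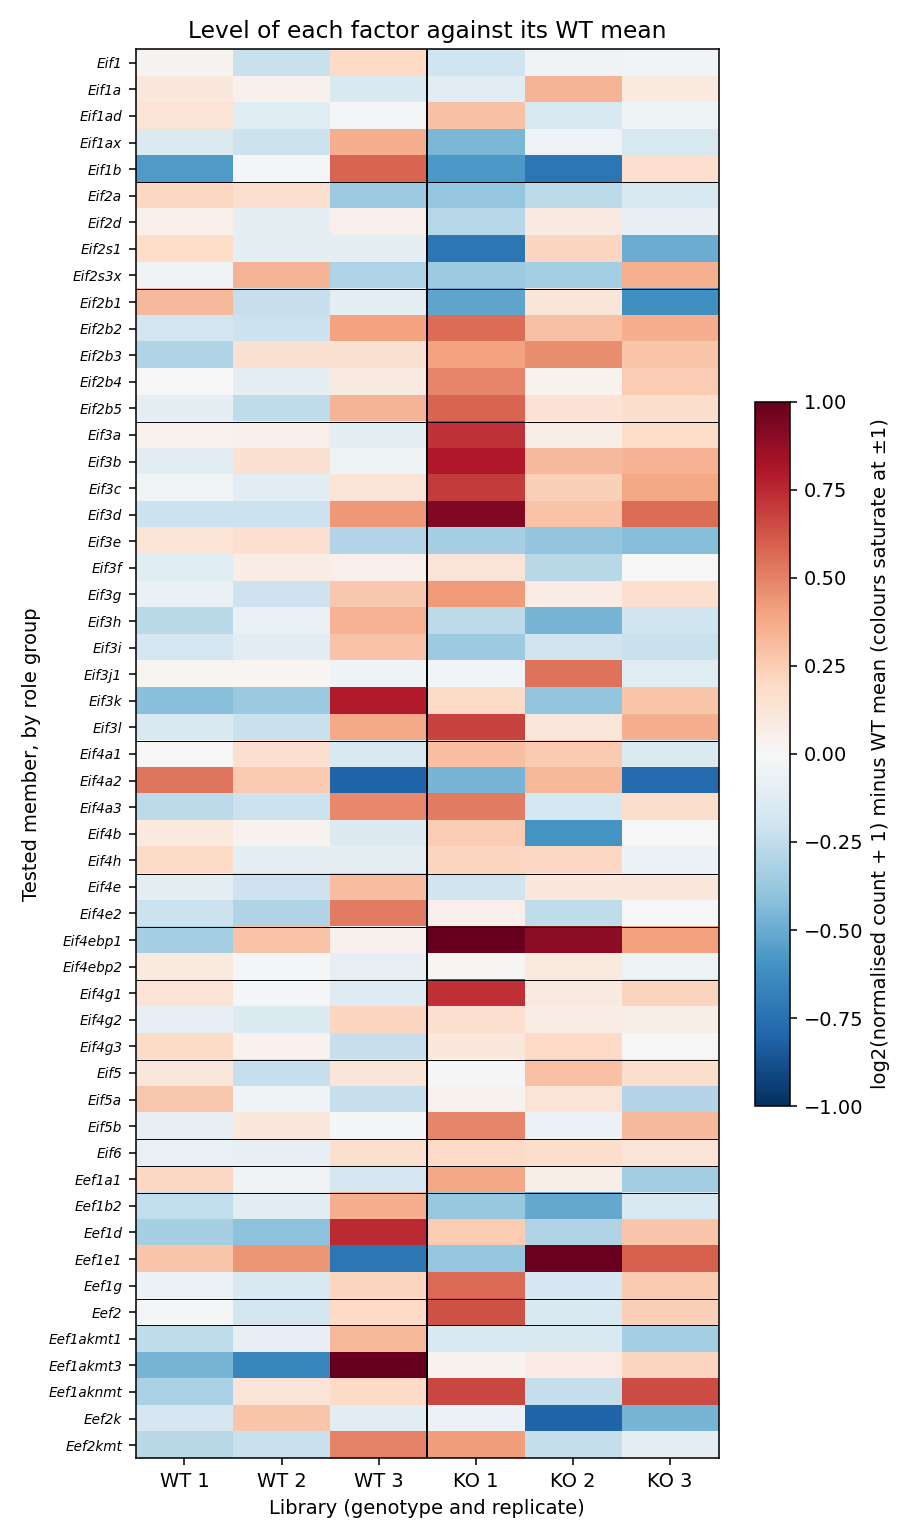
Level of each tested factor other than Eif2s3y in the 6 libraries, as log2(normalised count + 1) minus the WT mean, in rows ordered by role; the thick line parts WT from KO and colours saturate at 1 in size. KO replicate 1 holds the highest value of 23 rows and WT replicate 3 that of 14, and Eif4ebp1 is red in all 3 KO libraries.

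Some libraries were high or low across many factors at once. Of the 53 factors other than Eif2s3y, 23 had their highest value in KO replicate 1 (43.4%, against 21.3% of all genes) and 14 in WT replicate 3 (26.4%, against 19.8%). The lowest value fell in WT replicate 2 for 16 factors (30.2%, against 14.9% of all genes). The median factor lay 0.06 and 0.09 below the WT mean in WT replicates 1 and 2 (-0.06 and -0.09) and 0.13 above it in WT replicate 3, and 0.18, 0.07 and 0.08 above it in the KO libraries. By this median WT replicate 3 lay nearer to the KO libraries than to the other 2 WT libraries. The part of the muscle and fibroblast RNA of KO replicate 1 in these values was not tested. Together the factors took 0.711% to 0.833% of the normalised counts of a library, with the lowest share in WT replicate 1 and the highest in KO replicate 1. The median within-group coefficient of variation of a factor was 17.3% in WT and 16.7% in KO.

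None of the 5 tested genes grouped with eIF1 and eIF1A, which scan for the start codon, passed, and their differences ran from -0.38 to 0.11. The group counts Eif1ad, which is named for an eIF1A domain only. Eif1ax, the X-linked eIF1A, was at 1048, 999 and 1494 in WT and 845, 1120.3 and 1042 in KO, a difference of -0.22 ± 0.20 (SE, limma adjusted p = 0.706) that was -0.040 without WT replicate 3 and -0.10 without KO replicate 1. Eif1b, a paralog of eIF1, had 42.4, 62.8 and 95.3 in WT and 42.3, 37.9 and 71.5 in KO, and its lowest and highest values lay more than 2-fold apart in WT alone; the difference of -0.38 was -0.086 without WT replicate 3. The genotypes overlapped in both genes. The table also lists 17 further eIF1A-domain copies (Eif1ad2 and others), of which 12 were at 0 in every library and 5 had a value in 1 library each, none above 1.72.

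The subunits of eIF2 itself gave no called difference, and the differences of the 4 tested genes named for eIF2 other than the Y-linked Eif2s3y lay between -0.34 and -0.09. That of Eif2s3x, -0.12, was above 0 with a weight per library, without WT replicate 2 and without KO replicate 1. Eif2s1, the alpha subunit that stress kinases phosphorylate, was at 401, 332 and 333 in WT and 215, 410.2 and 251 in KO (356 ± 39.7 against 292 ± 104; difference -0.34 ± 0.24 SE, limma adjusted p = 0.606). KO replicates 1 and 3 lay under every WT value and KO replicate 2 lay above them all. The difference was -0.14 without KO replicate 1 and -0.61 without KO replicate 2. Eif2a and Eif2d, which name factors that deliver initiator tRNA by other routes and are not eIF2 subunits, differed by -0.27 and -0.09. The beta subunit, Eif2s2, was listed at 0 in all 6 libraries; every cell needs this subunit, so such a 0 is not read as absence.

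The gamma subunit has a copy on each sex chromosome, and its Y copy split the libraries across genotype. Eif2s3y was at 116, 0 and 82.3 in WT and 79.1, 109 and 0 in KO. For counting error only, each of these zeros was taken to allow 3 reads, which is 2.62 normalised counts in WT replicate 2 and 2.86 in KO replicate 3. This allowance is a convention and not a hard limit. The same 2 libraries had no more than 2.86 normalised counts of the Y-linked genes Ddx3y and Uty and none of Kdm5d, while the other 4 had at least 34.7 of each. Xist, the RNA of the inactive X, was listed at 0 in all 6, so it separates none of them. The split holds 1 library of each genotype, and the fitted difference of Eif2s3y, -0.05, carries an SE of 1.93.

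Eif2s3x, the X copy, was highest in the 2 libraries without the Y copy: 103 in WT replicate 2 and 104 in KO replicate 3, against 62.8 to 79.2 in the other 4. The sum of both copies was 195, 103 and 148 in WT against 142, 172 and 104 in KO. With the copies summed, those 2 libraries were the lowest of all. The genotypes overlapped for each copy and for the sum. The 2 genes lie on different chromosomes but share sequence around their starts. The following 30-base windows from the RefSeq promoter table (GRCm38.p6) are shown because they end in the 12 shared bases, in capitals. These bases begin 7 before a RefSeq transcript start of Eif2s3x (position -7) and 3 before one of Eif2s3y (position -3). Both windows lie inside the GENCODE M21 genes, which start at chrX:94212862 (minus) and chrY:1010543 (plus). They are written 5′ to 3′ on the gene's strand, chrX:94212629-94212658 (minus) and chrY:1010592-1010621 (plus).
Eif2s3x: cattttccttttctctccGAGCAAGATGGC
Eif2s3y: gccacttccttctttcgtGAGCAAGATGGC
The counted tags lie near the 3′ end, so these windows do not show whether tags match both copies. Any splitting or dropping of shared reads by the counting was not tested.

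**Figure D3:**
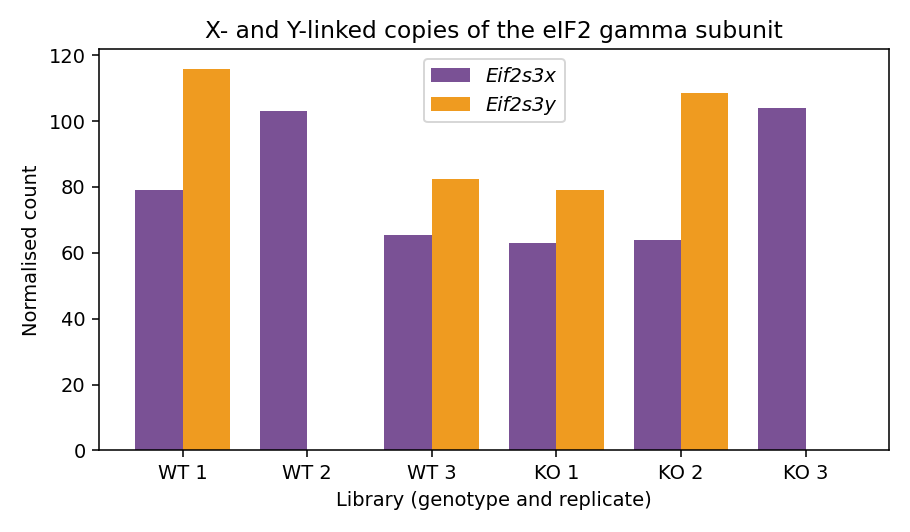
Normalised counts of Eif2s3x (purple) and Eif2s3y (orange) in each of the 6 libraries; 1 bar is 1 library. Eif2s3y is at 0 in WT replicate 2 and KO replicate 3, where Eif2s3x has its 2 highest values, 103 and 104.

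eIF2B, the exchange factor that stress signalling blocks through eIF2, has 5 subunits, and 4 of the 5 had differences above 0. Eif2b3, which encodes the gamma subunit, was at 98.0, 134 and 135 in WT and 160.3, 167 and 147 in KO, with no overlap (122 ± 21.0 against 158 ± 10.4; difference 0.38 ± 0.20 SE, limma adjusted p = 0.447). Without WT replicate 1 its difference was 0.23. Eif2b2, the beta subunit, was at 305, 301 and 462 in WT and 515, 427 and 449 in KO, where WT replicate 3 lay among the KO values (difference 0.40, limma adjusted p = 0.430, and 0.61 without that library). Eif2b5, the catalytic epsilon subunit, and Eif2b4, the delta subunit, differed by 0.30 and 0.26, and Eif2b5 by 0.16 without KO replicate 1. Eif2b1, the alpha subunit, differed by -0.34, with 174, 119 and 131 in WT and 96.4, 152 and 90.5 in KO. None of the 5 passed.

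eIF3, the large scaffold on the small ribosomal subunit, had 3 of 12 tested subunits under an unadjusted p of 0.05 (13.5% of all genes were) and 5 of 12 whose genotypes did not overlap (19.1% of all genes), and its subunits did not share a direction. The complex was singled out after these values were seen, so the counts are a description. Among the subunits 8 had differences above 0 and 4 below (7 and 5 with equal library totals), and 0 passed. The highest differences were those of Eif3d, Eif3b and Eif3c, and the lowest was that of Eif3e.

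Eif3b, the scaffold of the module that also holds Eif3g and Eif3i, was at 278, 334 and 291 in WT and 523, 376 and 382 in KO (301 ± 29.4 against 427 ± 83.4; difference 0.49 ± 0.19 SE, limma adjusted p = 0.272). Eif3c, a core subunit, was at 985, 933 and 1104 in WT and 1634, 1188 and 1311 in KO (1007 ± 87.5 against 1378 ± 230.4; difference 0.44 ± 0.18 SE, limma adjusted p = 0.309). Every KO library lay above every WT library in both genes. Eif3a, the largest core subunit, also did not overlap, with 1073, 1086 and 982 in WT and 1723, 1097 and 1190.3 in KO, but KO replicate 2 lay just above the highest WT value, and without KO replicate 1 the difference was 0.13 rather than 0.32.

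Eif3d, which can itself bind the cap of some mRNAs, was at 361, 361 and 568 in WT and 797, 513 and 618 in KO (430.1 ± 119.5 against 643 ± 144; difference 0.59 ± 0.23 SE, limma adjusted p = 0.289). Here WT replicate 3 lay above KO replicate 2. With a weight per library in the fit, Eif3d was the 1 member called (limma adjusted p = 0.0490). Without KO replicate 1 the differences of Eif3b, Eif3c and Eif3d were 0.33, 0.31 and 0.42. Eif3l, a further subunit, likewise had WT replicate 3 among the KO values, with 344, 329 and 498 in WT and 613, 415 and 493 in KO.

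Eif3e, a subunit that contacts Eif3d, lay the other way, at 585, 595 and 434 in WT and 423, 406 and 395 in KO (538 ± 90.5 against 408 ± 13.6; difference -0.38 ± 0.18 SE, limma adjusted p = 0.384). The 3 KO values lay close together and just under WT replicate 3. Eif3i, which binds Eif3b in the complex, was at 1245, 1313 and 1715 in WT and 1094, 1229.8 and 1208 in KO (difference -0.26, limma adjusted p = 0.590, and -0.12 without WT replicate 3). Eif3h differed by -0.31 and Eif3f by -0.05.

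Ratios of eIF3 partners that lay in opposite directions were taken within each library, a description chosen after the values were seen. Eif3d was 0.617, 0.607 and 1.31 of Eif3e in WT against 1.89, 1.26 and 1.56 in KO, where WT replicate 3 lay above KO replicate 2. Eif3b amounted to 0.223, 0.255 and 0.170 of Eif3i in WT and 0.478, 0.306 and 0.316 in KO. The genotypes did not overlap for either gene, in opposite directions, so this ratio could not overlap and adds nothing to the single values. Eif3k was the least even subunit, at 978, 1011 and 2261 in WT and 1492, 996 and 1588 in KO, where WT replicate 3 was more than 2-fold above the other WT libraries; its difference of 0.03 turned below 0 under several settings. Eif3m was listed at 0 in all 6 libraries, which is not read as absence, and Eif3j2, a copy of Eif3j1, had at most 5.22.

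**Figure D4:**
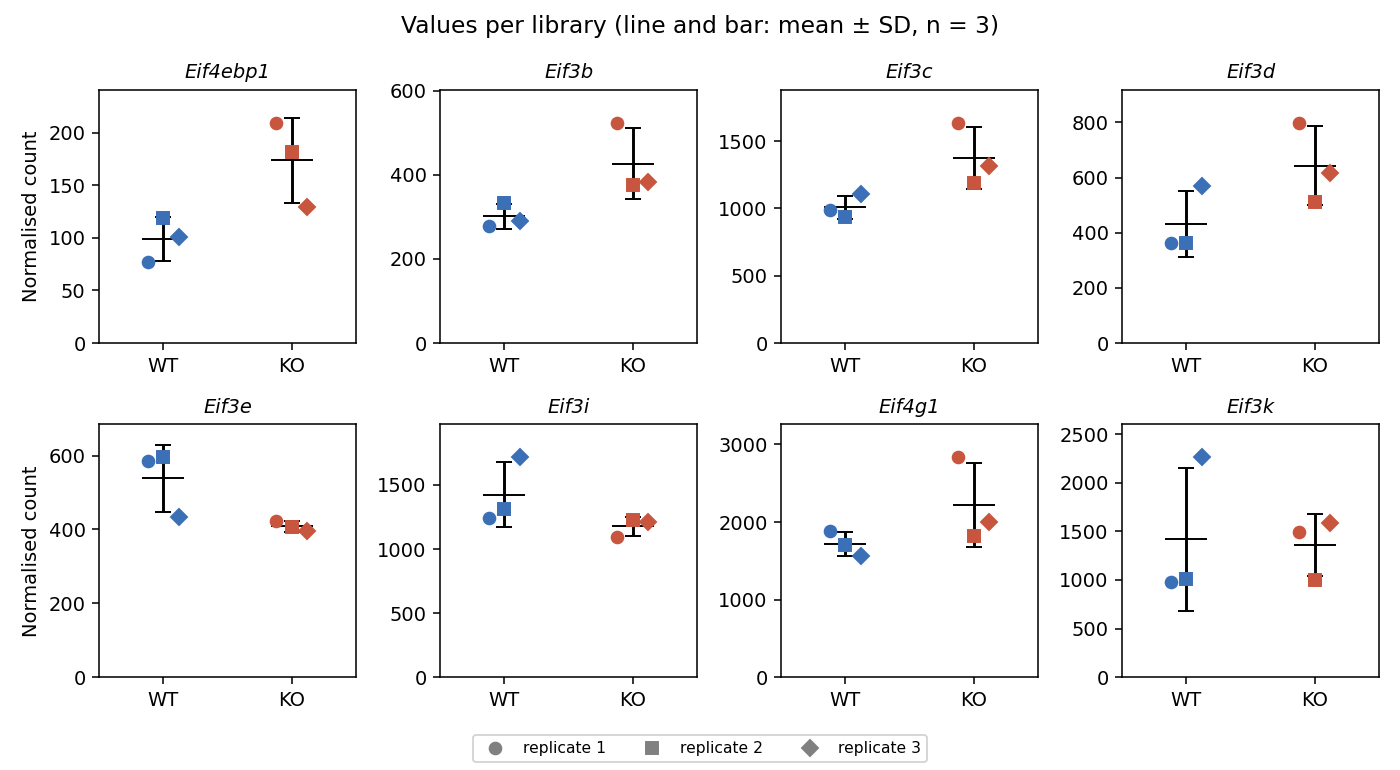
Normalised counts of 8 factors in each library, WT in blue and KO in red, with symbols for replicates 1 to 3 and the line and bar for mean ± SD (n = 3); each axis starts at 0. The genotypes do not overlap for Eif4ebp1, Eif3b, Eif3c, Eif3e and Eif3i, and KO replicate 1 is the highest point for Eif4ebp1, Eif3b, Eif3c, Eif3d and Eif4g1.

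At the cap, the inhibitor and not the cap-binding protein showed the larger difference. Eif4ebp1 (chr8:27260329-27276674, plus strand in GENCODE M21, GRCm38) encodes 4E-BP1, which blocks eIF4E until mTOR phosphorylates it. It was at 77.3, 119 and 101 in WT and 209, 182 and 129.6 in KO (98.8 ± 20.8 against 174 ± 40.4). All 3 KO libraries lay above all 3 WT libraries, with KO replicate 3 the nearest to WT. The difference was 0.80 ± 0.24 SE with a 95% interval of 0.27 to 1.33, and it did not pass (limma adjusted p = 0.147; 0.140 by edgeR and 0.0963 by DESeq2 on recovered reads). Without KO replicate 1 the difference was 0.65 (limma adjusted p = 0.436) and without WT replicate 1 it was 0.63 (limma adjusted p = 0.399). Over the alternative settings it ran from 0.56, with a weight per library (limma adjusted p = 0.172), to 0.99, without KO replicate 3. A fit that also separated libraries named by a number from those named by a letter gave 0.86 (limma adjusted p = 0.192).

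Its paralog Eif4ebp2 had a value within the WT range in every KO library, at 797, 736 and 704 in WT and 749.7, 796 and 719 in KO (difference 0.02, or -0.019 with equal library totals, 95% interval -0.33 to 0.36). Eif4ebp3, the third paralog, and Eif4enif1, the transporter that carries eIF4E to the nucleus, were listed at 0 in all 6 libraries, which is not read as absence. Eif4e, the cap-binding protein, was at 479, 443 and 636 in WT and 446, 552 and 554 in KO, with a 95% interval of -0.42 to 0.43 around a difference of 0.00. The ratio of Eif4ebp1 to Eif4ebp2, again chosen after the values were seen, was 0.0969, 0.161 and 0.143 in WT against 0.279, 0.228 and 0.180 in KO. The ratio of Eif4ebp1 to Eif4e overlapped, since 0.234 in KO replicate 3 lay under the 0.268 of WT replicate 2. Eif4e2, a relative that represses translation, differed by -0.07, and Eif4e1b had less than 1 normalised count in every library.

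The scaffold and helicase genes had smaller differences. Eif4g1, the main scaffold, was at 1880.2, 1699 and 1568 in WT and 2834, 1825 and 1999 in KO (difference 0.35 ± 0.20 SE, limma adjusted p = 0.511). KO replicate 1 set most of that gap: without it the difference was 0.16. Eif4g2, a relative that does not bind eIF4E, and Eif4g3 each differed by 0.10, so that 3 of 3 scaffold genes lay above 0 and 0 passed. The helicase genes Eif4a1 and Eif4a2 differed by 0.14 and -0.30, Eif4a3, a helicase of the exon junction complex, by 0.17, and the helicase partners Eif4b and Eif4h by -0.12 and 0.12. Eif4a2 was low, at 19.6 to 50.9, with a 95% interval of -1.20 to 0.60.

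None of the 3 tested eIF5 genes nor Eif6, which act around subunit joining and after it, passed. Eif5, which makes eIF2 hydrolyse its GTP, was at 2586, 2038 and 2602 in WT and 2375, 2927 and 2707 in KO (difference 0.15 ± 0.18 SE, and 0.036 without WT replicate 2). Eif5b, which joins the large subunit, was at 1399, 1589 and 1460.1 in WT and 2077, 1418 and 1851 in KO (difference 0.25, limma adjusted p = 0.629), and its difference was 0.13 without KO replicate 1 and 0.41 without KO replicate 2. Eif6, which keeps the large subunit apart until it is mature, was at 1458, 1443 and 1707 in WT and 1763, 1729 and 1688 in KO, where only WT replicate 3 reached the KO values (difference 0.17, limma adjusted p = 0.715). Eif5a, the hypusine-bearing factor that helps stalled ribosomes, differed by -0.04, with a 95% interval of -0.48 to 0.40.

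Among elongation factors, Eef1b2, the exchange subunit for eEF1A, had the highest mean tag count of all members, 5182. It was at 4825, 5289 and 7387 in WT and 4412, 4011 and 5171 in KO (difference -0.35 ± 0.22 SE, limma adjusted p = 0.550), with KO replicate 3 inside the WT range, and the difference was -0.16 without WT replicate 3. Eef1g, the structural subunit of the same complex, differed by 0.22, and the ratio of Eef1b2 to Eef1g, chosen after the values were seen, was 5.25, 6.14 and 6.65 in WT against 3.11, 4.69 and 4.50 in KO. Eef1d, another exchange subunit, was at 577, 545 and 1217 in WT and 867, 590.3 and 882 in KO, with WT replicate 3 the highest of all 6. Eef1e1, a tRNA synthetase scaffold protein named with this family, differed by 0.40 with an interval of -0.52 to 1.32.

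Eef2, the translocase, was at 2912, 2592 and 3384 in WT and 4572, 2650.1 and 3480.3 in KO (difference 0.24 ± 0.23 SE, limma adjusted p = 0.714), and the difference was 0.044 without KO replicate 1 and 0.44 without KO replicate 2. Its inhibitory kinase, Eef2k, had the lowest difference of all tested members, with 95.2, 130.0 and 99.3 in WT and 103, 61.2 and 77.2 in KO (difference -0.44 ± 0.24 SE, limma adjusted p = 0.477). KO replicates 2 and 3 lay under the WT values and KO replicate 1 among them, and without KO replicate 2 the difference was -0.26. The methyltransferases Eef1akmt1, Eef1akmt3, Eef1aknmt and Eef2kmt, which modify eEF1A or eEF2, had differences between -0.22 and 0.36 at mean counts of 24.0 to 72.7. Eef1akmt2 and Eef1akmt4 were listed at 0, which is not read as absence.

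Eef1a1, the tRNA carrier of most tissues, was at 804, 679.8 and 620.3 in WT and 911, 725 and 548 in KO (difference 0.03, 95% interval -0.43 to 0.50; -0.0052 with equal library totals). The gene has many processed copies in the genome and reads shared with them could be lost in counting, so its level is uncertain. Eef1a2, the carrier of adult muscle and neurons, was too low to test: 0, 7.85 and 1.31 in WT and 17.3, 0.862 and 5.72 in KO. Its highest value lay in KO replicate 1, where the summed muscle markers were 3924, and the part of muscle in that value was not tested. The other untested members above 0 were Eif5a2, with at most 4.71, and Eif2c5, a row named for a protein of the Argonaute family, with at most 9.6.

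**Figure D5:**
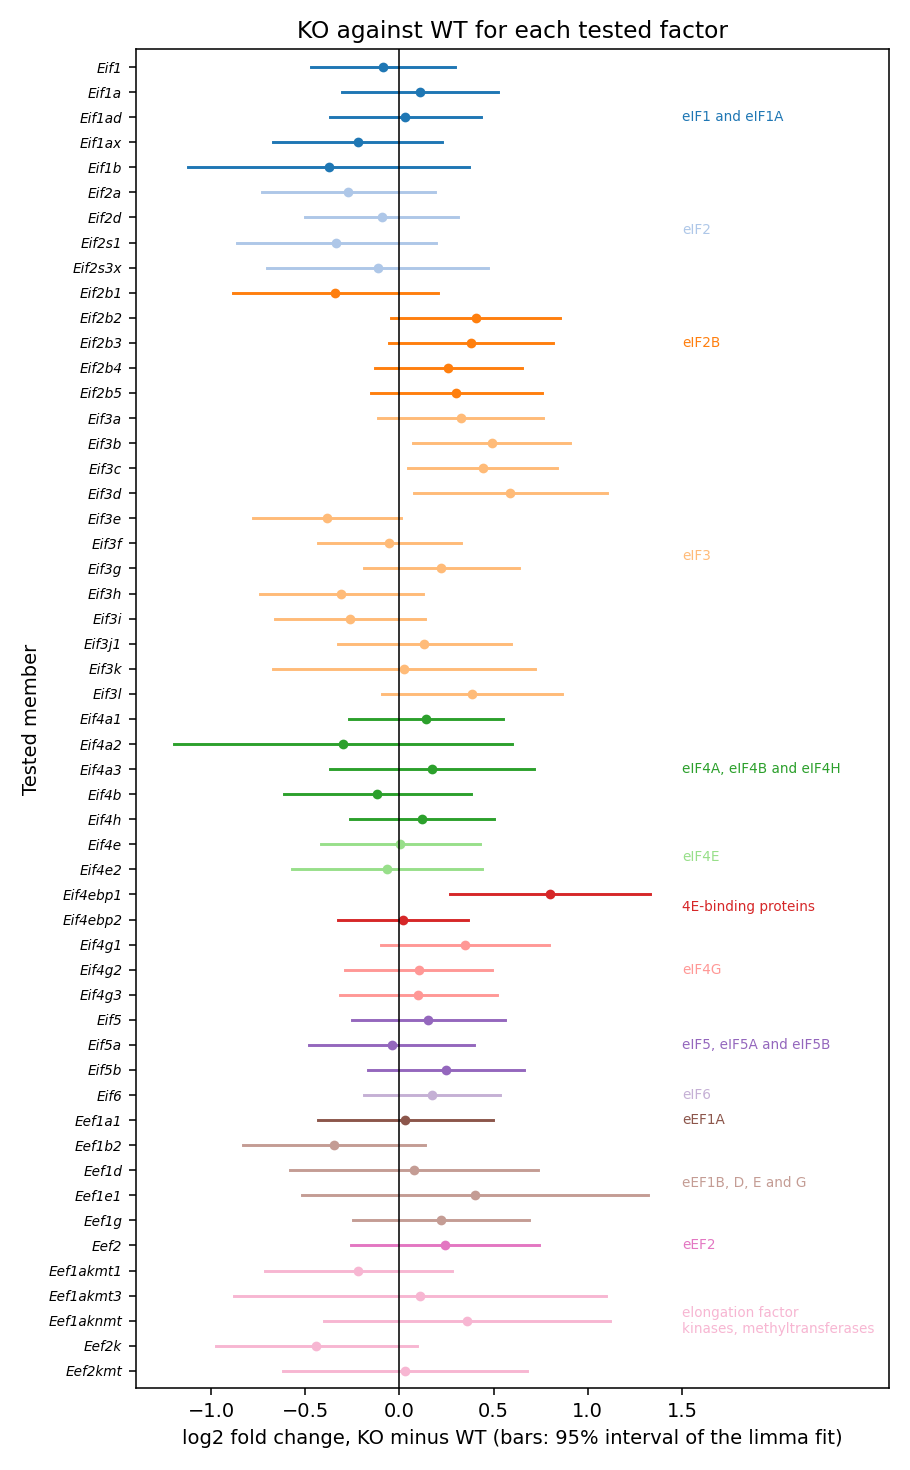
Log2 difference, KO minus WT, of each tested factor other than Eif2s3y (point) with its 95% interval from the limma fit (bar), coloured by role. The intervals of Eif4ebp1, Eif3b, Eif3c and Eif3d lie above 0 before adjustment, and all the others span 0.

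Genes that act with these factors were counted in 7 further lists, and 0 passed in each. The eIF2 kinases, phosphatase subunits and partners had 4 of 11 tested genes above 0 and 7 below (median -0.15, and -0.023 without KO replicate 1). In that list Nck1, an adaptor that brings phosphatase to eIF2, had the smallest p, with 125, 117 and 74.4 in WT and 54.2, 81.0 and 67.7 in KO (difference -0.62, limma adjusted p = 0.323). Eif2ak3, which encodes PERK, differed by -0.11.

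The list of mTOR and MNK signalling to the cap complex had 7 of 16 tested genes above 0 and 9 below (median -0.01), and without KO replicate 1 these counts were 9 and 7. Pdcd4, which inhibits the helicase eIF4A, had the smallest p there, with 1354, 1097 and 1060.0 in WT and 850.5, 644 and 819 in KO (difference -0.60 ± 0.18 SE, limma adjusted p = 0.151). All 3 KO values lay under all WT values. Among poly(A)-binding proteins and partners 1 of 5 tested genes was above 0, and Paip2b, an inhibitor of poly(A)-binding protein, differed by -0.72 (limma adjusted p = 0.309).

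Cytosolic aminoacyl-tRNA synthetases, which charge the tRNAs, had 19 of 21 tested genes above 0 (18 with equal library totals), against 49.1% of all genes. Their median was 0.28 against -0.01 for all genes. KO replicate 1 held the highest value of 16 of the 21, while 21.3% of all genes were highest there. Without KO replicate 1, 17 lay above 0 and the median was 0.11. That library had the high muscle and fibroblast markers, and their part in these values was not tested. Farsb, a phenylalanyl-tRNA synthetase subunit, was at 230.0, 230.4 and 276 in WT and 492, 280.1 and 428 in KO (difference 0.67 ± 0.22 SE, limma adjusted p = 0.197). KO replicate 2 was close to WT replicate 3 there. The other initiation, scanning and recycling factors had 6 of 9 tested genes above 0 (5 with equal library totals, 4 without KO replicate 1), with Abcf1, a partner of eIF2, at 0.49 (limma adjusted p = 0.292). Hypusine and diphthamide enzymes had 3 of 6 above 0, with Dnajc24, needed for the diphthamide of eEF2, at -0.49 (limma adjusted p = 0.384), and mitochondrial translation factors had 4 of 9 above 0 (median -0.11).

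Promoter sequence was read for what members share apart from their names. The RefSeq table (GRCm38.p6, 250 bases before to 50 after each annotated start) held 42 of the 54 tested members. The palindromic E-box CACGTG, which MYC and related factors can bind, stood in the window of 12 of those 42 (28.6%). It stood in 12.1% of the 8568 tested genes with a window and in 8.09% of all 27025 genes with a window. These shares were not matched on expression level. The motif TGATGNAA, bound by ATF4 and CHOP dimers and searched on both strands, stood in 2 of 42 (4.76%), against 2.88% and 4.51%. A match is a string of letters and not a site shown to be bound. The 5 windows that follow are given, with the E-box in capitals, since they come from factors described above. Their positions count from a RefSeq transcript start, which for Eif4g1 and Eif1b lies inside the GENCODE M21 gene. All read 5′ to 3′ on the gene's strand. They are Eif4g1 at -54 (chr16:20672661-20672690, plus), Eif3a at 23 after the start (chr19:60790654-60790683, minus), Eef2 at -43 (chr10:81176576-81176605, plus), Eef2k at -31 (chr7:120842788-120842817, plus) and Eif1b at -24 (chr9:120492570-120492599, plus).
Eif4g1: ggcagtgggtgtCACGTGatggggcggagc
Eif3a: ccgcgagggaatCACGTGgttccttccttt
Eef2: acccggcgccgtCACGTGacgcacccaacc
Eef2k: cccggggacggcCACGTGagcccgggcgtg
Eif1b: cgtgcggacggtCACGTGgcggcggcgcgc
Carrying the E-box did not go with one direction of difference: 8 of the 12 members with it lay above 0 and 4 below (median 0.07), from -0.44 for Eef2k to 0.36 for Eef1aknmt. Of the 29 members without it other than Eif2s3y, 18 lay above 0 and 11 below (median 0.03).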

How the data were processed

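Per the file headers, the authors deposited normalised counts per gene and library, a signal on a linear scale. A second deposited table lists the genes the authors called, with log2 fold changes, a score (the Wald statistic), p-values and q-values. The submitters' processing notes name FastQC, STAR, featureCounts and DESeq2 and give no versions. For the genome build, annotation and strand setting, the sources used here give nothing. Each value was a whole multiple of 1 step per library (100% within 0.01 reads), which gave back whole reads. A step was 0.862 to 1.31 normalised counts. Rows without a symbol held at most 0.119% of the counts and were kept.

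Genotype and replicate came from the sample titles. Counts were transformed to log2(normalised count + 1), which understates the change of low genes. The genotypes were compared by limma 3.58.1 (R 4.3.3) with an intensity trend, two-sided, at an adjusted p of 0.05. An exact permutation test of 3 against 3 cannot go below 0.1 and was not used. The fit was tested on simulated data. edgeR 4.0.16 and DESeq2 1.42.0 were run on the recovered reads. The rule names the member with the smallest limma p and that with the highest mean of each role group, plus Eif4ebp1 to Eif4ebp3, Eef1a1, Eef1a2, Eef2, Eef2k, Eif2s3x and Eif2s3y. Of each other list the gene with the smallest p is named, except the mitochondrial one. Eif2b3, Eif3a, Eif3c, Eif3d, Eif3e and Eif3i were added after their values were seen, for groups without overlap or a low unadjusted p, and so was every other member or list gene named outside the rule. Members, lists and rules were chosen with earlier results of these data known. Gene coordinates are from GENCODE M21 by gene identifier.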

Additional observations from a re-analysis of the deposited data

How the results depend on the processing

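Under 19 alternative settings the number of members called stayed at 0 with 1 exception: with a weight per library, 1 member (Eif3d) was called higher in KO. Of 551 values of the 29 named members other than Eif2s3y, 518 kept their direction and side of the threshold, 32 reversed and 1 passed. Over all genes, 198 calls became 590 with a weight per library, 368 by DESeq2, 82 with library name style as covariate and 58 to 181 when 1 library was left out, lowest without KO replicate 3 (58) and KO replicate 1 (67), then WT replicate 2 (85), KO replicate 2 (99) and WT replicate 1 (126). The median difference of the tested members, 0.09, was 0.024 without WT replicate 2 and 0.14 without WT replicate 3, the range over libraries left out. The replicate block gave 178 calls over all genes and 0 members. Same-numbered libraries had correlations of -0.25, 0.03 and 0.28 in their deviations. WT replicate 1 correlated best with KO replicate 2 (0.41) and WT replicate 3 with KO replicate 3 (0.28). Deviations from means of 3 libraries cannot decide whether the numbers pair samples, and the main fit used no pairing. With equal library totals Eef1a1 was -0.0052, Eif4ebp2 -0.019, Eif3k -0.011 and Eif4e -0.032. With a weight per library Eef1a1 was -0.20, Eif1b 0.034, Eif4a1 -0.066, Eif4e2 0.11, Eif4ebp2 -0.034 and Eif2s3x 0.037. By edgeR Eif3k was -0.060 and Eif4e -0.0034, by DESeq2 -0.059 and -0.0023, and with library name style -0.13 and -0.12. With 1 library left out the ranges were -0.15 to 0.22 for Eef1a1, -0.22 to 0.19 for Eif4e2, -0.023 to 0.067 for Eif4ebp2, -0.18 to 0.42 for Eif3k, -0.10 to 0.16 for Eif4e and -0.35 to 0.054 for Eif2s3x. The cause of these reversals was not tested. The widest SE among tested factors other than Eif2s3y was 0.45, of Eef1akmt3, whose WT replicate 3 was at 47.0 and the other 5 libraries at 13.1 to 24.8.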
